A study of Homo sapiens with 40 samples.

Results

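TNFRSF21, the gene for death receptor 6, was followed together with 7 further genes of the death receptor pathway in human diffuse large B-cell lymphoma cells treated with an inhibitor of the histone methyltransferase EZH2. The 8 genes are the ligand gene TNFSF10, the receptor genes TNFRSF10A, TNFRSF10B, FAS, TNFRSF21 and TNFRSF1A, the adaptor gene FADD and the caspase gene CASP8. Each gene was read from the probe set that carries its symbol alone and has the highest mean over all arrays. Its remaining single-symbol probe sets served as a check. The 8 genes have 22 single-symbol probe sets in all, the main ones included. TNFRSF1A and FADD have 1 each and so had no check. All 8 genes were among the 15211 genes tested, out of 19775 genes with a single-symbol probe set. The study hybridised 40 arrays, 1 for each RNA sample, from 10 established cell lines of this lymphoma. Each line was grown for 72 h with either 0.1% DMSO, the vehicle, or 500 nM GSK126, with 2 arrays for each line and treatment. How the cultures behind the 2 arrays, biological replicates by their labels, were kept apart is not stated, so p-values within a line measure the spread between such arrays, which may be technical.

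The labels give 7 lines as EZH2 mutant, without naming the mutation, and 3 as EZH2 wild type. They also give for each line a growth IC50, the GSK126 concentration at the midpoint of growth inhibition. Among the mutant lines it is 28 nM for Pfeiffer, 134 nM for WSU-DLCL2, 232 nM for KARPAS-422, 448 nM for SU-DHL-10, 582 nM for SU-DHL-6, 861 nM for DB and 4828 nM for SU-DHL-4. Among the wild type lines it is 516 nM for HT, 1019 nM for OCI-LY-19 and 13786 nM for Toledo. Every condition is therefore sampled in lymphoma lines alone, with no normal B cell beside them.

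Death receptors are members of the TNF receptor superfamily that carry a cytoplasmic death domain. TRAIL, the product of TNFSF10, binds the receptors encoded by TNFRSF10A and TNFRSF10B, and Fas ligand binds FAS; the engaged receptors recruit the adaptor FADD, which brings in and activates caspase-8. TNFR1, the product of TNFRSF1A, signals mainly through the adaptor TRADD to NF-kB and can also lead to cell death, and death receptor 6 is a death domain receptor studied in neurons and lymphocytes. In germinal centre B cells, the cells from which many of these lymphomas arise, FAS is a well known restraint on survival. EZH2 is the catalytic subunit of the repressive complex PRC2, which methylates histone H3 at lysine 27 and is known for acting at CpG-rich promoters. These arrays measured RNA only, as an average over each culture, so fewer expressing cells and less RNA per cell cannot be told apart.

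Over the 10 lines, 18 of the 80 pairs of line and gene passed the test for a response to GSK126, 11 with a rise and 7 with a fall, against 12.7% of such pairs over all genes tested. With arrays brought to equal medians the balance turned, to 9 rises and 13 falls. That setting moves all genes of a line together, and the share of all genes called under it is not given here. TNFSF10 rose in 5 lines, all of them mutant. TNFRSF21 rose in Pfeiffer and KARPAS-422, with the largest change of the 8 genes in any line. FAS rose in Pfeiffer and SU-DHL-6 and fell in WSU-DLCL2. TNFRSF10A fell in 2 lines and TNFRSF10B in 3, by the probe sets used here, FADD rose in 1 line, CASP8 rose in 1 and fell in 1, and TNFRSF1A passed in none. Among all genes tested, 2.73% rose in at least 5 lines, as TNFSF10 did, and 9.09% rose in at least 1 line and fell in at least 1 other, as FAS and CASP8 did.

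Of the 8 genes 7 were called in at least 1 line, as were 57.3% of all genes. By line, Pfeiffer had 3 members risen and 2 fallen, where 24.6% of all genes were called, 14.6% risen and 9.93% fallen. WSU-DLCL2 had 1 risen and 3 fallen, where 26.6% were called, 13.9% risen and 12.7% fallen. KARPAS-422 had 3 risen and 1 fallen, where 28.9% were called, 15.5% risen and 13.4% fallen. Rises thus stood beside falls in each of these lines. SU-DHL-10 had 2 risen and 1 fallen, where 18.2% were called, 11.0% risen and 7.16% fallen. SU-DHL-6 had 2 risen and none fallen, where 11.0% were called, 7.42% risen and 3.56% fallen. None of the 8 was called in HT (9.32% of all genes), DB (3.12%), SU-DHL-4 (2.60%), OCI-LY-19 (2.41%) or Toledo (0.164%). The lines with called members were thus those in which many genes of any kind were called. The median change of the 8 genes on the log2 scale was 0.45 in Pfeiffer beside 0.07 for all genes, -0.39 in WSU-DLCL2 beside 0.07, 0.16 in KARPAS-422 beside 0.01 and 0.29 in SU-DHL-10 beside 0.06. With 8 genes, these medians describe the set and support no statement that it stands apart.

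**Figure D1:**
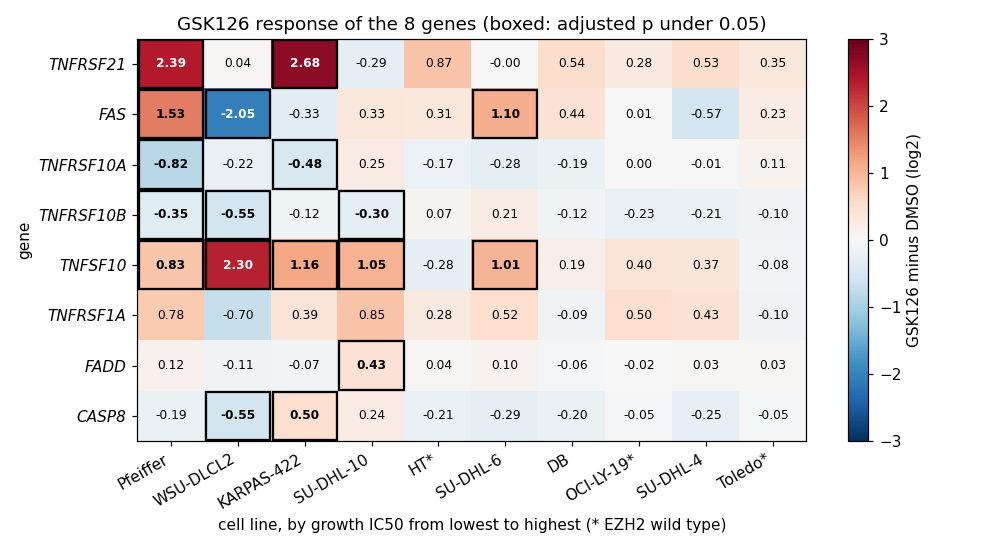
Change with GSK126 (log2, GSK126 minus DMSO, means of 2 arrays each) of the 8 genes in rows and the 10 lines in columns, ordered by growth IC50 from lowest to highest; red cells are higher with GSK126, blue cells lower, boxed cells passed the test at an adjusted p under 0.05, and an asterisk marks a wild type line. The 18 boxed cells lie in 5 mutant lines, with 2.68 for TNFRSF21 in KARPAS-422 as the highest value and -2.05 for FAS in WSU-DLCL2 as the lowest.

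The promoters of TNFRSF21 and TNFSF10 are printed because these genes showed the largest rises and differ widely in CpG content. Both sequences come from RefSeq on GRCh38.p14, run from 250 bases before to 50 bases after the annotated start, and are given 5′ to 3′ on the minus strand of the genome. Capitals mark CG dinucleotides. TNFSF10 lies at chr3:172523381-172523680 and TNFRSF21 at chr6:47309856-47310155.
TNFRSF21: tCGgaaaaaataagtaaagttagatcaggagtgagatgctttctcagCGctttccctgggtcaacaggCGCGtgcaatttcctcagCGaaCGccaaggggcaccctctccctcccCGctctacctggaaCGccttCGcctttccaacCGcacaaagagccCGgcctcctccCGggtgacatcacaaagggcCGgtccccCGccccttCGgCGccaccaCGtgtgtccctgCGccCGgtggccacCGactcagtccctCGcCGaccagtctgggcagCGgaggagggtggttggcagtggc
TNFSF10: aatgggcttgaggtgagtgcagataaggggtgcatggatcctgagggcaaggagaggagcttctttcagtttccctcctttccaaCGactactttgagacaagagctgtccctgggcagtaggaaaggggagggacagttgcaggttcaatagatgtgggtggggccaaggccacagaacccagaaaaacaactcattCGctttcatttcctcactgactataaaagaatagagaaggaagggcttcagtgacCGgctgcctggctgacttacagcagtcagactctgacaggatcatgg
The TNFRSF21 window holds 23 CG dinucleotides, more than 64.2% of the 35116 promoters of the table, whose median is 14. The TNFSF10 window holds 3, more than 18.2% of them. In between or beyond lay the other matched members: FADD had 36, the 3 annotated starts of FAS had 14 to 22, those of CASP8 had 5 to 6, and TNFRSF1A had 4. Promoters were counted for 6 of the 8 genes. TNFRSF10A and TNFRSF10B were left out of the search, so their absence here says nothing about their promoters. On either strand, the letters GGGCGG, a GC box, occurred once in the TNFRSF21 window and not in that of TNFSF10, and 45% of all promoters hold them. The TNFSF10 window held 1 match to TATAAA, the TATA box, present in 11.5% of all promoters. These matches describe letters in a window and no measured binding.

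Levels are given as log2(signal + 17.72), where signal is the deposited log2 value returned to the linear scale and 17.72 damps the scatter of dim probe sets. On this scale the lowest possible value is 4.15 and the array medians lay between 6.26 and 6.73. Changes are GSK126 minus DMSO on the same scale, which understates the change of dim genes, with the standard error (SE) of the fit. Levels of different genes come from different probe sets and are not compared with each other.

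TNFSF10 encodes TRAIL, the ligand of the TNFRSF10A and TNFRSF10B receptors. With DMSO it was highest in OCI-LY-19 (8.56 ± 0.14, SD, n = 2), Toledo (7.83 ± 0.07) and SU-DHL-4 (7.04 ± 0.16), then Pfeiffer (6.26 ± 0.14), and these 4 did not overlap with the next in order. SU-DHL-10, SU-DHL-6, DB, HT, WSU-DLCL2 and KARPAS-422 followed between 5.90 and 5.28, each overlapping with its neighbour, and all of them lay below the array medians. The lines with the lowest growth IC50 were thus not those with the highest vehicle level.

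In WSU-DLCL2, TNFSF10 read 5.11 and 5.59 with DMSO and 7.75 and 7.55 with GSK126, a rise of 2.30 ± 0.27 (SE), adjusted p = 2.43e-07. KARPAS-422 went from 4.89 and 5.67 to 6.27 and 6.62 (1.16 ± 0.27, adjusted p = 0.0016). SU-DHL-10 went from 5.74 and 6.06 to 6.96 and 6.93 (1.05 ± 0.27, adjusted p = 0.00718). In these 3 lines both treated arrays lay above both vehicle arrays, and the vehicle arrays were below the array medians.
SU-DHL-6 went from 5.81 and 5.43 to 6.51 and 6.74 (1.01 ± 0.27, adjusted p = 0.0153). Pfeiffer went from 6.16 and 6.36 to 7.32 and 6.85 (0.83 ± 0.27, adjusted p = 0.0269), the smallest called rise. Treated and vehicle arrays were again apart in both lines. The changes of HT (-0.28), Toledo (-0.08), DB (0.19), SU-DHL-4 (0.37) and OCI-LY-19 (0.40) did not pass, with a lowest adjusted p of 0.651. After treatment the 5 lines with a rise still lay below the vehicle level of OCI-LY-19, the line with the highest level.

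The 2 further TNFSF10 probe sets followed the main one over the 40 arrays (r of 0.95 and 0.92, a description over arrays that share lines) and both were called in WSU-DLCL2, at 1.88 and 1.95, Pfeiffer and SU-DHL-10. The KARPAS-422 call was kept by 1 of the 2 and the SU-DHL-6 call by neither. The WSU-DLCL2 rise alone kept its call under every alternative and with each array left out. With each line fitted alone on its 4 arrays, the adjusted p was 0.154 in SU-DHL-6, 0.0894 in SU-DHL-10, 0.0835 in Pfeiffer and 0.0663 in KARPAS-422.

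FAS encodes the receptor of Fas ligand. Its vehicle level spanned 6.68 log2 units, from 11.88 ± 0.00 (SD, n = 2) in KARPAS-422 to 5.19 ± 0.54 in DB. Between them came OCI-LY-19 (10.11), WSU-DLCL2 (9.93), SU-DHL-10 (9.88), Pfeiffer (8.59), Toledo (8.35), SU-DHL-6 (7.82), HT (7.75) and SU-DHL-4 (6.18). The arrays of WSU-DLCL2 overlapped with those of SU-DHL-10 and those of SU-DHL-6 with HT; the other neighbours were apart. DB and SU-DHL-4 were the lines with a mean below 6.26, the lowest array median.

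GSK126 moved FAS in opposite directions in different lines. Pfeiffer read 8.64 and 8.54 with DMSO and 10.13 and 10.10 with GSK126, a rise of 1.53 ± 0.22, adjusted p = 5.56e-06. SU-DHL-6 went from 7.61 and 8.02 to 8.85 and 8.98 (1.10 ± 0.22, adjusted p = 0.00108). WSU-DLCL2 went from 9.91 and 9.95 to 7.77 and 7.99, a change of -2.05 ± 0.22 with an adjusted p of 4.88e-08. The treated arrays were apart from the vehicle arrays in each of these lines. WSU-DLCL2 thereby came to lie at the vehicle level of SU-DHL-6 and HT.

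The other 7 lines did not pass the test for FAS, with changes from -0.57 in SU-DHL-4 to 0.44 in DB and adjusted p from 0.219. KARPAS-422, the line with the most FAS RNA, read 11.87 and 11.88 with DMSO and 11.56 and 11.53 with GSK126 (-0.33, which passed with the line fitted alone, adjusted p = 0.00508). In SU-DHL-4 the treated arrays were 6.05 and 5.17 against vehicle values of 5.98 and 6.37, and leaving out the first treated array brought the adjusted p to 0.0184. Of the 4 other FAS probe sets, 3 followed the main one (r = 0.99 over 40 arrays for each) and were called in Pfeiffer, SU-DHL-6 and WSU-DLCL2 in the same direction. One of these 3 was also called in SU-DHL-4 (-0.99, adjusted p = 0.00204). The remaining probe set, above the array median on 6 of 40 arrays, did not follow it (r = 0.45) and was called in none of the 3 lines.

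TNFRSF21 separated the lines with DMSO into those above and those below the array medians. OCI-LY-19 (9.23 ± 0.01, SD, n = 2), DB (9.13 ± 0.04), Toledo (8.71 ± 0.36), SU-DHL-4 (8.07 ± 0.35) and Pfeiffer (7.76 ± 0.49) were above. SU-DHL-6 (5.16 ± 0.41), SU-DHL-10 (5.13 ± 0.31), KARPAS-422 (4.76 ± 0.35), WSU-DLCL2 (4.69 ± 0.13) and HT (4.56 ± 0.19) were below, 2.59 log2 units under Pfeiffer and near the floor of the scale. Within the lower group each line overlapped with its neighbour, and so did SU-DHL-4 with Pfeiffer in the upper one. Both groups hold mutant and wild type lines.

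**Figure D2:**
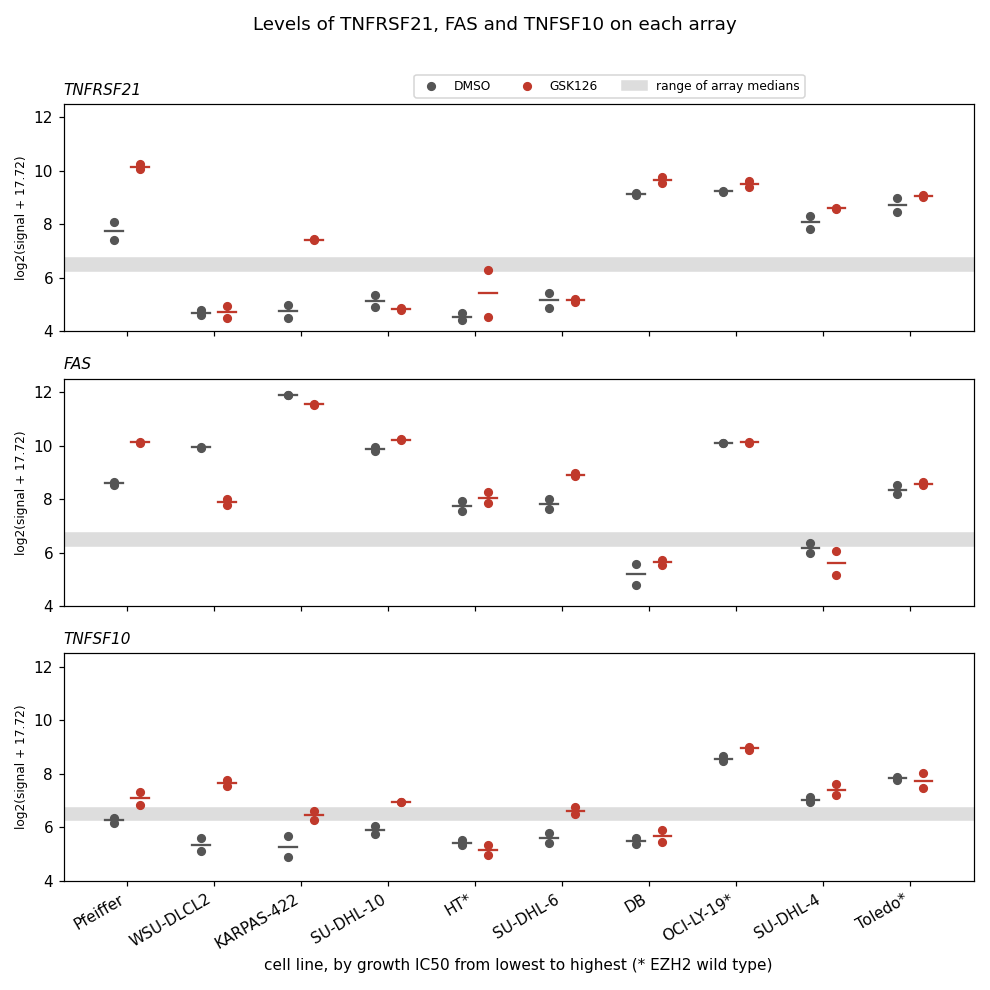
Level of TNFRSF21, FAS and TNFSF10 on each array (log2 of signal plus 17.72), 1 point per array and a short line at the mean of 2 arrays, with DMSO in grey and GSK126 in red; lines are ordered by growth IC50, an asterisk marks wild type, and the grey band is the range of the array medians, 6.26 to 6.73. In TNFRSF21 the treated arrays of Pfeiffer (10.06 and 10.24) and KARPAS-422 (7.44 and 7.43) stand above their vehicle arrays, and in FAS those of WSU-DLCL2 (7.77 and 7.99) stand below.

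In KARPAS-422 TNFRSF21 went from 4.51 and 5.01 with DMSO to 7.44 and 7.43 with GSK126, a rise of 2.68 ± 0.35, adjusted p = 7.06e-07. On the linear scale of the deposited signals these are 5.09 and 14.4 against 156 and 155, so the gene went from dim to above the array medians. Pfeiffer went from 7.41 and 8.10 to 10.06 and 10.24, a rise of 2.39 ± 0.35, adjusted p = 6.35e-06. Here the gene was already measured well above the array medians with DMSO, and the treated level exceeded that of every other line. Because the vehicle arrays of KARPAS-422 lay near the floor, the size of that rise depended on the constant added, from 1.49 with 4 times the constant to 4.18 with none added. The study followed TNFRSF21 on these samples, so the direction of these rises is not independent evidence.

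No other line passed the test for TNFRSF21. The 2 treated arrays of HT disagreed, 6.31 and 4.54 against vehicle values of 4.43 and 4.69 (0.87 ± 0.35, adjusted p = 0.136). Without the second treated array the change was 1.75 with an adjusted p of 0.000644, so a single array decides that line. DB (9.16 and 9.10 to 9.79 and 9.56), SU-DHL-4 (8.32 and 7.82 to 8.59 and 8.62), Toledo (8.46 and 8.97 to 9.03 and 9.10) and OCI-LY-19 (9.22 and 9.24 to 9.63 and 9.39) each had both treated arrays above both vehicle arrays. These changes of 0.28 to 0.54 did not pass at an SE of 0.35. That SE is pooled over all lines, including HT, whose treated arrays had an SD of 1.25. With 2 arrays a side, separation of treated from vehicle arrays is common. Over the 8 genes, arrays were apart, in either direction, in 3 (TNFRSF1A) to 9 (TNFRSF10B) of the 10 lines. Its share over all genes was not taken. WSU-DLCL2 (0.04), SU-DHL-6 (-0.00) and SU-DHL-10 (-0.29) stayed at low levels on all 4 arrays, between 4.52 and 5.45.

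The second TNFRSF21 probe set followed the first over 40 arrays (r = 0.96) and gave 2.27 in Pfeiffer and 1.89 in KARPAS-422, both called. It differed in SU-DHL-6, where it gave 1.21 with an adjusted p of 0.00185 from a vehicle mean of 4.49, while the main probe set gave -0.00.

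TNFRSF10A encodes TRAIL receptor 1. All 40 arrays were above the array median, and vehicle levels lay between 10.33 ± 0.06 (SD, n = 2) in HT and 8.43 ± 0.20 in Toledo. HT, KARPAS-422, DB, WSU-DLCL2 and SU-DHL-4 formed a run of overlapping neighbours from 10.33 to 10.10, followed by SU-DHL-6 (9.71), SU-DHL-10 (9.66), Pfeiffer (9.46) and OCI-LY-19 (9.36). In Pfeiffer the gene fell from 9.48 and 9.44 to 8.60 and 8.67 (-0.82 ± 0.12, adjusted p = 4.45e-06). In KARPAS-422 it fell from 10.26 and 10.29 to 9.88 and 9.73 (-0.48 ± 0.12, adjusted p = 0.00239). Both treated Pfeiffer arrays lay just above the vehicle mean of Toledo. The other 8 lines had changes between -0.28 and 0.25 without passing the test, and both further probe sets were called in Pfeiffer and KARPAS-422 as well. Those 2 probe sets were also called in SU-DHL-6, at -0.66 and -0.50.

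TNFRSF10B encodes TRAIL receptor 2. It too was above the array median on all 40 arrays, with vehicle levels from 12.00 ± 0.09 (SD, n = 2) in WSU-DLCL2 to 9.03 ± 0.15 in SU-DHL-6. SU-DHL-10 (11.68), KARPAS-422 (11.59), SU-DHL-4 (11.45), OCI-LY-19 (11.28), HT (11.25) and DB (11.15) lay close together in the upper range, OCI-LY-19 and HT overlapping, while Pfeiffer (9.82) and Toledo (9.60) stood with SU-DHL-6 well below. WSU-DLCL2 went from 12.06 and 11.94 to 11.38 and 11.51 (-0.55 ± 0.09, adjusted p = 1.50e-05). Pfeiffer went from 9.81 and 9.82 to 9.56 and 9.37 (-0.35 ± 0.09, adjusted p = 0.0029). SU-DHL-10 went from 11.69 and 11.68 to 11.39 and 11.39 (-0.30 ± 0.09, adjusted p = 0.0164). These falls are small, with the treated arrays below the vehicle arrays in each line. One of the other probe sets, above the array median on all 40 arrays, was called as a rise in SU-DHL-6 (0.68, adjusted p = 0.0193), where the main one gave 0.21. None of the 3 calls was kept by any of the 3 other probe sets, of which 2 gave the same sign in each line. The remaining one, above the array median on 6 of 40 arrays, gave 1.27 in Pfeiffer (adjusted p = 0.0460) and 0.0029 in WSU-DLCL2. Leaving out any 1 of its 4 arrays took the SU-DHL-10 call away, with adjusted p from 0.0625 to 0.0824, and without the second treated array the Pfeiffer value was -0.26 (adjusted p = 0.0824).

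TNFRSF1A encodes TNF receptor 1. Its single probe set was above the array median on 8 of 40 arrays, those of OCI-LY-19 and Pfeiffer. With DMSO these lines read 7.21 ± 0.40 and 7.08 ± 0.16 (SD, n = 2), WSU-DLCL2 5.96 and SU-DHL-6 5.37, and the other 6 lines between 4.99 and 4.68, each overlapping with the next. No line passed the test, with changes from -0.70 in WSU-DLCL2 to 0.85 in SU-DHL-10, SE 0.45 and a lowest adjusted p of 0.213. Pfeiffer had both treated arrays above both vehicle arrays (7.19 and 6.97 to 7.85 and 7.87), a change of 0.78 that passed with the line fitted alone (adjusted p = 0.0364) and with 4 times the constant added (adjusted p = 0.0336). In SU-DHL-10 1 treated array was high, 6.45 against 4.87, over vehicle values of 4.70 and 4.92, and without the lower one the change was 1.64 and called (adjusted p = 0.0237). At this spread a change of the size seen for FADD or CASP8 was not detectable in TNFRSF1A.

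FADD, the adaptor, had the narrowest range of vehicle levels, from 10.98 ± 0.01 (SD, n = 2) in DB to 10.42 ± 0.02 in OCI-LY-19. Pfeiffer (10.87), WSU-DLCL2 (10.79), SU-DHL-10 (10.72), Toledo (10.70), SU-DHL-6 (10.60), KARPAS-422 (10.51), SU-DHL-4 (10.43) and HT (10.43) lay between, many of them overlapping. It rose in SU-DHL-10 from 10.70 and 10.74 to 11.20 and 11.11 (0.43 ± 0.09, adjusted p = 0.00119). The other 9 lines lay between -0.11 and 0.12. With arrays brought to equal medians, which moves the median of all genes in SU-DHL-10 by -0.23, the FADD rise was 0.18 and lost its call (adjusted p = 0.281), and in WSU-DLCL2 FADD was called as a fall (-0.36, adjusted p = 0.0152).

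CASP8, the initiator caspase, was highest with DMSO in OCI-LY-19 (10.88 ± 0.03, SD, n = 2), followed by HT (10.63), WSU-DLCL2 (10.58), DB (10.57), SU-DHL-4 (10.43), SU-DHL-6 (10.11), Pfeiffer (10.06), SU-DHL-10 (9.64), KARPAS-422 (9.36) and Toledo (9.16 ± 0.01). HT overlapped with WSU-DLCL2 and WSU-DLCL2 with DB, and the other neighbours were apart. KARPAS-422 rose from 9.27 and 9.45 to 9.94 and 9.78 (0.50 ± 0.12, adjusted p = 0.00157). WSU-DLCL2 fell from 10.47 and 10.69 to 9.96 and 10.10 (-0.55 ± 0.12, adjusted p = 0.000688). Treated and vehicle arrays were apart in both lines. The other 8 lines lay between -0.29 and 0.24. At equal array medians CASP8 was called as a fall in SU-DHL-6 (-0.48, adjusted p = 0.00873) and Pfeiffer (-0.34, adjusted p = 0.0481), and without the first treated array the SU-DHL-10 change was 0.44 and called (adjusted p = 0.0271). Of the other CASP8 probe sets, the one that followed the main one (r = 0.79) gave 0.84 in KARPAS-422, called, and -0.32 in WSU-DLCL2, not called. The other was above the array median on 4 of 40 arrays and did not follow it (r = -0.08), with -0.57 in KARPAS-422 and -0.76 in WSU-DLCL2, neither called.

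**Figure D3:**
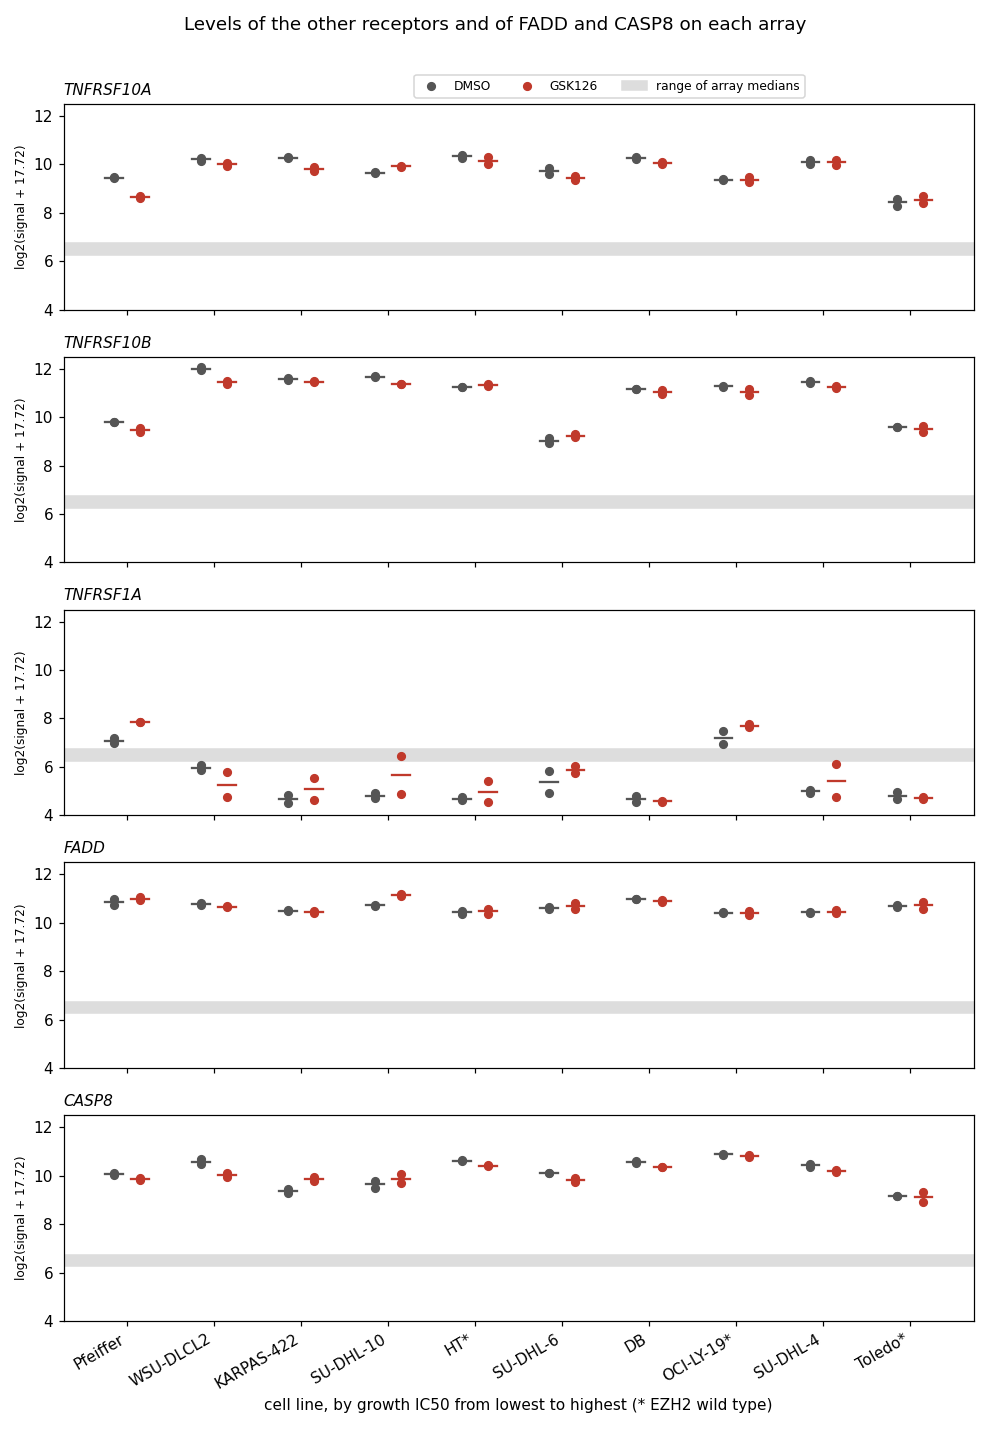
Level of TNFRSF10A, TNFRSF10B, TNFRSF1A, FADD and CASP8 on each array (log2 of signal plus 17.72), drawn as in the plot of TNFRSF21, FAS and TNFSF10 by array, with DMSO in grey, GSK126 in red and the range of the array medians as a grey band. All genes but TNFRSF1A lie above the band on all 40 arrays, and TNFRSF1A is above it on the arrays of Pfeiffer and OCI-LY-19.

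The vehicle level differed among the 10 lines for all 8 genes (limma F test, adjusted p from 9.42e-23 for TNFRSF10B to 4.38e-06 for FADD), as it did for 84.6% of all genes tested. The range over lines was 6.68 for FAS, 4.67 for TNFRSF21, 3.28 for TNFSF10, 2.97 for TNFRSF10B, 2.53 for TNFRSF1A, 1.90 for TNFRSF10A, 1.72 for CASP8 and 0.56 for FADD, each in log2 units of its own probe set. Between genotypes no member's vehicle level passed the test with lines as replicates (0 of 8, against 0.0526% of all genes, where 1184 of 15211 genes and 1 of the 8 had an unadjusted p under 0.05). TNFSF10 was the one, at 5.85 ± 0.62 (SD, n = 7) in the mutant lines and 7.27 ± 1.64 (SD, n = 3) in the wild type lines, adjusted p = 0.632. HT, with 5.43, lay among the mutant lines. Against the growth IC50 no member's vehicle level had an unadjusted p under 0.05 (0 called, against 0.00% of all genes and 1049 genes with an unadjusted p under 0.05).

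A call in one line and none in another does not show a difference, so each line's response was also tested against the mean response of the other 9. Of 80 such comparisons 16 were called, in 7 of the 8 genes. By line, 1.99% (SU-DHL-4) to 22.2% (KARPAS-422) of all genes were called. The share of all genes called against the rest in at least 1 line was not taken. In Pfeiffer (16.4% of all genes called), TNFRSF21 was higher by 1.83 (adjusted p = 0.000673), FAS was higher by 1.58 (adjusted p = 1.36e-05) and TNFRSF10A was lower, at -0.71 (adjusted p = 0.000124). In WSU-DLCL2 (18.2%), FAS stood at -2.39 (adjusted p = 1.74e-08), TNFSF10 at 1.79 (adjusted p = 4.42e-05), CASP8 at -0.50 (adjusted p = 0.00462) and TNFRSF10B at -0.43 (adjusted p = 0.00111). In KARPAS-422 (22.2%), TNFRSF21 stood at 2.15 (adjusted p = 6.53e-05) and CASP8 at 0.67 (adjusted p = 0.00018). WSU-DLCL2 thus stood above the rest in the ligand gene and below it in FAS. The CASP8 call in WSU-DLCL2 was lost without the second vehicle array (adjusted p = 0.0841) or the first treated array (adjusted p = 0.0638), and the TNFRSF21 call in Pfeiffer with 1 added in place of 17.72 (adjusted p = 0.0850).

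SU-DHL-10 (11.2% of all genes) was higher than the rest in TNFRSF10A (0.48, adjusted p = 0.0100), FADD (0.42, adjusted p = 0.00409) and CASP8 (0.38, adjusted p = 0.0438) and lower in TNFRSF21 (-1.14, adjusted p = 0.0424). At equal array medians the calls of TNFRSF10A (adjusted p = 0.169), FADD (adjusted p = 0.145) and CASP8 (adjusted p = 0.255) were lost. Each was also lost with at least 1 array left out, at an adjusted p up to 0.0624 for TNFRSF10A, 0.0529 for FADD and 0.462 for CASP8, whose difference was 0.19 without the second treated array. SU-DHL-6 (4.48%) was higher in FAS (1.11, adjusted p = 0.00414) and TNFRSF10B (0.42, adjusted p = 0.00532). Without the first vehicle array both calls were lost (adjusted p = 0.0922 and 0.136), as was that of FAS with 1 added (adjusted p = 0.0548) and that of TNFRSF10B at equal medians (adjusted p = 0.109) and without the second treated array (adjusted p = 0.0870). HT (4.37%) was lower in TNFSF10 (-1.08, adjusted p = 0.0275). Within their own lines, TNFRSF10A (0.25) and CASP8 (0.24) in SU-DHL-10 and TNFRSF10B (0.21) in SU-DHL-6 were not called as changes. Nor were the values for TNFRSF21 in SU-DHL-10 and TNFSF10 in HT changes within those lines, where the responses were -0.29 and -0.28. For these last genes the mean of the other lines was 0.85 for TNFRSF21 and 0.80 for TNFSF10. Both lost their call with any 1 of the line's 4 arrays left out, with adjusted p up to 0.255 and 0.235. No member was called against the rest in Toledo (4.92% of all genes), DB (3.56%), OCI-LY-19 (2.83%) or SU-DHL-4 (1.99%).

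With lines as replicates, no member passed in any comparison of responses. For the mean response of the 7 mutant lines this was 0 of 8 against 0.00657% of all genes, and 4 of 8 members and 3813 of 15211 genes had an unadjusted p under 0.05. TNFSF10 came nearest, with a mean of 0.99 ± 0.23 (SE), positive in 7 of 7 lines, adjusted p = 0.0611. With arrays at equal medians, 3 members were called, TNFSF10 at 0.89, TNFRSF10A at -0.39 and TNFRSF10B at -0.35. That setting moved the median of all genes by -0.23 in SU-DHL-10 to 0.04 in DB. The share of all genes called under it is not given here, so these 3 calls do not set the members apart. TNFRSF21 had a mutant mean of 0.84 ± 0.35 (adjusted p = 0.169), with -0.29 to 0.54 in the 5 mutant lines other than Pfeiffer and KARPAS-422, and FAS, with responses of both signs, had 0.07 ± 0.33.

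In the 3 wild type lines the mean response was 0.01 ± 0.35 (SE) for TNFSF10 and 0.50 ± 0.54 for TNFRSF21 (0 of 8 called, 0.00% of all genes, and 0 of 8 members and 550 genes with an unadjusted p under 0.05). The difference between the genotypes was 0.98 ± 0.41 for TNFSF10 (unadjusted p = 0.0376, adjusted p = 0.992) and 0.34 ± 0.65 for TNFRSF21 (0 of 8 called, 0.00% of all genes, 575 genes and 1 member with an unadjusted p under 0.05). A difference between mutant and wild type lines in these responses was thus not shown, and with 3 wild type lines its interval is wide. Each line carries 1 tag of the labels' descriptions, R6, R7 or R8, whose meaning is not given, and a block for it changed none of these calls.

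**Figure D4:**
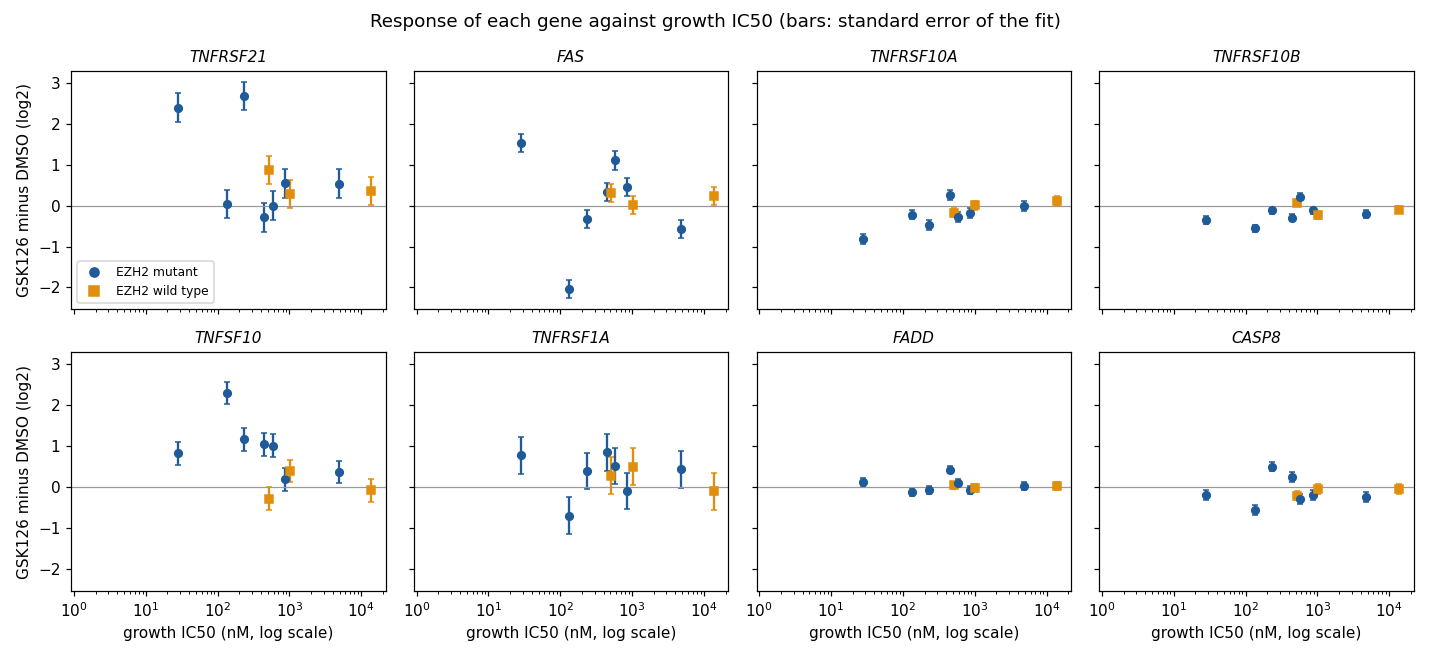
Change with GSK126 (log2, GSK126 minus DMSO) of each of the 8 genes against the growth IC50 of the line (nM, log scale), with 1 point per line, bars for the standard error of the fit, blue circles for the 7 mutant lines and orange squares for the 3 wild type lines. The TNFSF10 points of the mutant lines lie between 0.19 and 2.30 and those of the wild type lines between -0.28 and 0.40, while FADD lies near 0 in all lines but SU-DHL-10.

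The growth IC50 was set against the response by a slope for each 10-fold step of the IC50. No member passed (0 of 8, 0.00% of all genes, with 1420 genes and 1 member at an unadjusted p under 0.05). TNFRSF10A was that member, with 0.30 ± 0.09 (SE; unadjusted p = 0.00801, adjusted p = 0.430), and its called falls were in Pfeiffer and KARPAS-422. TNFRSF21 had a slope of -0.63 ± 0.37 and TNFSF10 of -0.56 ± 0.28, both towards larger rises at low IC50. WSU-DLCL2, with the second lowest growth IC50, had a TNFRSF21 change of 0.04, which did not pass, and the largest TNFSF10 response (2.30).

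The wider pathway was read from 5 lists with 61 genes. Among the other death and decoy receptors, 3 of 7 were tested, with 2 rises and no fall over 30 pairs of line and gene (6.67% called, against 12.7% over all genes). Both were of TNFRSF10D, which encodes a TRAIL decoy receptor. It rose by 1.37 ± 0.21 (SE; adjusted p = 7.91e-06) in WSU-DLCL2, where TNFSF10 rose too, and by 0.64 in Pfeiffer, a call lost under several alternatives. Its response lay between -0.45 and 0.38 in the other 8 lines. TNFRSF25 and EDAR, tested as well, passed in no line.

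Among the other ligand genes, 4 of 5 were tested, with 1 rise and 8 falls over 40 pairs of line and gene (22.5% called, against 12.7% over all genes). LTA, which encodes lymphotoxin alpha, a ligand of the TNF receptors, fell in 5 lines: KARPAS-422 (-2.90 ± 0.21), WSU-DLCL2 (-2.53), HT (-1.17), SU-DHL-10 (-1.12) and SU-DHL-6 (-1.02). The SU-DHL-6 call was lost with the line fitted alone (adjusted p = 0.0954) and without the second treated array (adjusted p = 0.0601). The share of all genes that fell in at least 5 lines was not taken. TNF, encoding tumour necrosis factor, fell in KARPAS-422 (-2.40 ± 0.22, from 12.58 to 10.18) and in HT (-0.89) and WSU-DLCL2 (-0.71), where each call was lost with 3 of the line's 4 arrays left out in turn. Both were called in KARPAS-422 and WSU-DLCL2, where TNFSF10 rose, so ligand genes of the family moved in opposite directions there. TNFSF15, encoding the ligand TL1A, rose by 1.25 ± 0.29 in KARPAS-422. FASLG, the gene of the FAS ligand, did not pass the filter on low values.

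Of 18 genes of the death complex and its regulators, 15 were tested, with 16 rises and 10 falls over 150 pairs (17.3% called). CYLD, a deubiquitinase that restrains NF-kB signalling, rose in KARPAS-422 (1.59 ± 0.11), SU-DHL-6 (0.74, adjusted p = 0.102 with the line fitted alone) and Pfeiffer (0.49). TNFAIP3, encoding the NF-kB inhibitor A20, rose in Pfeiffer (1.12 ± 0.16) and SU-DHL-6 (0.59) and fell in WSU-DLCL2 (-1.24). Its SU-DHL-6 call was lost at equal medians (0.41, adjusted p = 0.0783), with the line fitted alone (adjusted p = 0.103) and without the first vehicle or the second treated array (adjusted p = 0.185 and 0.127). TRADD, the adaptor of TNF receptor 1, rose in WSU-DLCL2 (0.76 ± 0.19), Pfeiffer (0.71) and KARPAS-422 (0.56). MLKL, the effector of necroptosis, rose in Pfeiffer (1.36 ± 0.35), and DAXX, a FAS-binding and chromatin protein, rose in WSU-DLCL2 (0.81 ± 0.11) and SU-DHL-10 (0.34) and fell in KARPAS-422 (-0.31). In WSU-DLCL2 the list had 6 falls and 2 rises of 15, where 12.7% of all genes fell and 13.9% rose, with a median of -0.19 beside 0.07 for all genes. In Pfeiffer it had 6 rises and no fall, where 14.6% of all genes rose and 9.93% fell, with a median of 0.25 beside 0.07. The call of MLKL was lost with 1 added in place of 17.72 (adjusted p = 0.101) and without the first vehicle array (adjusted p = 0.0824), and the smaller calls of DAXX and TRADD were lost under several alternatives.

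Executioner caspases and mitochondrial factors had 12 of 14 tested, with 6 rises and 11 falls over 120 pairs (14.2% called). CASP6, an executioner caspase, fell in WSU-DLCL2 (-0.91 ± 0.10), KARPAS-422 (-0.57) and SU-DHL-10 (-0.45). The SU-DHL-10 call was lost with the line fitted alone (adjusted p = 0.0653) and without the second treated array (-0.29, adjusted p = 0.114). DFFA, the inhibitor and chaperone of the apoptotic nuclease, fell in KARPAS-422 (-0.53 ± 0.06) and Pfeiffer (-0.26). In Pfeiffer APAF1, the scaffold of the apoptosome, rose by 0.57 ± 0.15 and BAX, the pore-forming factor of mitochondria, fell by 0.60 on the log2 scale. Both calls were lost with the line fitted alone (adjusted p = 0.0915 for APAF1 and 0.205 for BAX). Without the second treated array the BAX value was -0.08 (adjusted p = 0.700), so that call rests on 1 array. Some genes of the 5 lists, among them RIPK1, TRAF2, BIRC3 and TNFRSF6B, were not analysed here.

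TNF receptor superfamily members without a death domain, 17 of 17 tested, had 14 rises and 2 falls over 170 pairs (9.41% called). TNFRSF17, which encodes the plasma cell receptor BCMA, rose in KARPAS-422 (0.90 ± 0.08), HT (0.86), SU-DHL-10 (0.66), DB (0.57) and WSU-DLCL2 (0.29). In WSU-DLCL2 it was 0.04 with arrays at equal medians (adjusted p = 0.824), and the call was also lost with 1 added (adjusted p = 0.0633), with none added (adjusted p = 0.113) and without the second vehicle array (adjusted p = 0.0525). Among all genes tested, 2.73% rose in at least 5 lines. CD27, a memory B cell receptor, rose by 0.33 to 0.55 in HT, SU-DHL-10, KARPAS-422 and WSU-DLCL2, but with arrays at equal medians it passed in none of them (0.14 to 0.38). CD40, the receptor of T cell help, rose in KARPAS-422 (1.08 ± 0.09) and Pfeiffer (0.43), and TNFRSF13C, which encodes the BAFF receptor, rose in Pfeiffer (1.81 ± 0.26). TNFRSF12A, the receptor of TWEAK, fell in KARPAS-422 (-1.43 ± 0.40) and WSU-DLCL2 (-1.16). The KARPAS-422 call was lost with 2 of its 4 arrays left out in turn (adjusted p = 0.115 and 0.143) and the WSU-DLCL2 call with 3 of 4 (adjusted p up to 0.271). TNFRSF19 (1.07 ± 0.36) and TNFRSF4 (0.64 ± 0.20) rose in SU-DHL-10, and both calls were lost with quantile normalization (adjusted p = 0.0981 and 0.111).

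**Figure D5:**
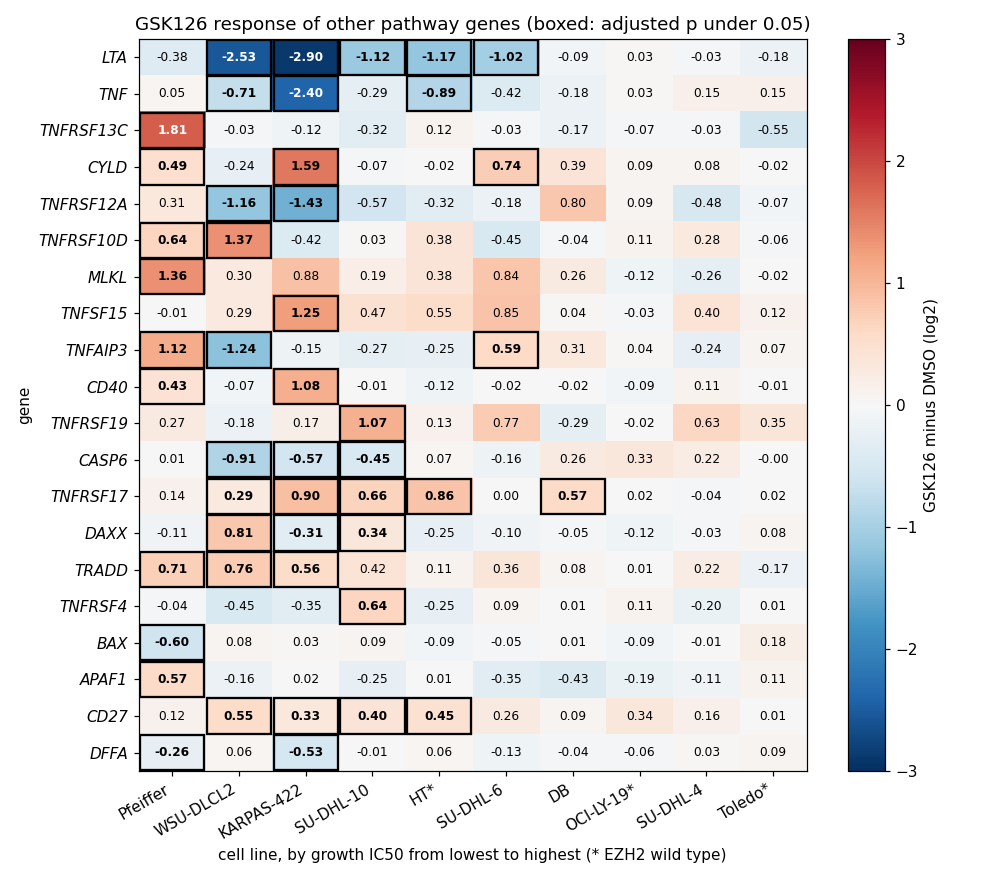
Change with GSK126 (log2, GSK126 minus DMSO) of the 20 further pathway genes named in the text, in rows, over the 10 lines in columns ordered by growth IC50; boxed cells passed the test at an adjusted p under 0.05 and an asterisk marks a wild type line. LTA has 5 boxed falls, from -1.02 to -2.90, and TNFRSF17 has 5 boxed rises, from 0.29 to 0.90, of which that of WSU-DLCL2 was 0.04 with arrays at equal medians. Calls in at least 5 lines were part of the rule by which genes were named.

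The genes whose responses were most like that of TNFRSF21 over the 10 lines, among 2879 genes with a response of at least 1 in some line, were RAB8B (r = 0.94), GPR65 (r = 0.94), H2BC12L (r = 0.93), ZBTB38 (r = 0.93) and DMXL1 (r = 0.92). Their responses in KARPAS-422 were 0.88 to 1.76 and in Pfeiffer 0.71 to 1.15, the lines in which TNFRSF21 was called. Without these lines r was 0.32 to 0.69. By vehicle level, among 5327 genes spanning at least 2 log2 units, the most alike were SH3TC1 (r = 0.94), SH3PXD2A (r = 0.91), MAP3K20 (r = 0.91), FBXW4P1 (r = 0.90) and MNX1-AS1 (r = 0.89). These correlations describe 10 lines whose arrays share a platform and scaling, and the genes were picked as the highest of many.

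All arrays had the same trimmed mean signal of 500, as scaled by the authors, and duplicate arrays correlated at 0.973 to 0.985 over the probe sets. Of 6 B cell markers 5 were measured and 4 of them, CD79A, CD79B, PAX5 and CD22, were above the array median on all 40 arrays, while MS4A1 was on 36. The summed signal of the B cell markers was 21033 to 50813 with DMSO and 22579 to 52817 with GSK126. The summed signal of 7 T and NK cell markers was 181 to 9460 with DMSO and 159 to 7684 with GSK126, with CD3E above the array median on 36 arrays, CD3D on 7, CD3G on 4, KLRD1 on 2 and CD2 on 1. That of 6 stromal and epithelial markers was 349 to 15733 and 463 to 21652, with COL1A1 above the array median on 40 arrays, DCN on 39, COL1A2 on 14 and EPCAM on 4. Myeloid markers summed to at most 249, with CSF1R above the median on 11 arrays, FCN1 on 5 and LYZ on 2, and erythroid and endothelial ones to at most 368, with HBB on 39 and VWF on 2. NKG7, GNLY, CD14, KRT19, CDH1 and CDH5 were above it on no array. Over the 10 lines the 5 B cell markers, all tested, rose in 12 pairs of line and gene and fell in 1. The 4 stromal and epithelial ones tested rose in 3, and the 3 myeloid ones tested rose in 1 and fell in 1. Over all genes tested 12.7% of such pairs were called. No T or NK cell, erythroid or endothelial marker was called. The part of these markers in the results was not tested.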

How the data were processed

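RNA from 40 samples of 10 lymphoma cell lines was hybridised to one-colour Affymetrix arrays. The deposited values are log2 signals, and MAS5 is named, without a version, in the submitters' processing notes. Each array has a mean signal of 500 after trimming 2% at either end. The log2 values were returned to the linear scale and analysed as log2(signal + 17.72), the constant being the median over arrays of the 25th percentile. Of 54675 probe sets 41091 carry 1 gene symbol, 1801 carry several and the rest none, and 41037 matched RefSeq. A gene, read from its single-symbol probe set of highest mean, was tested if above the array median on at least 2 arrays.

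A model with 20 group means over 40 arrays was fitted with limma 3.58.1 in R 4.3.3 (intensity trend, 20 residual degrees of freedom), and Benjamini-Hochberg adjustment ran over all 15211 genes with calls at an adjusted p under 0.05. Each line's response was also tested against the mean of the other 9, and across lines with the line as replicate. The number of arrays limits the precision. The fits were tested on simulated data. Members and gene lists were chosen with earlier results of these data known. List genes were named by the rule of largest called change, up to 20 genes, plus those called in at least 5 lines. Alternatives covered the constant, scaling, filter, fit, block, probe set and left-out arrays. Other probe sets were tried only for the members' responses within lines, not for list genes or for differences from the other 9 lines. Leaving out arrays for a line against the other 9 was added after seeing the data. Protein sequences were not used here.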

Additional observations from a re-analysis of the deposited data

Results flagged for a closer look

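Each line's response was tested against the mean response of the other 9 lines (limma, adjusted p under 0.05). By line, 1.99% (SU-DHL-4) to 22.2% (KARPAS-422) of all genes differed. Of the 80 pairs of line and member 16 differed. For TNFRSF21 these differences were 1.83 in Pfeiffer, 2.15 in KARPAS-422 and -1.14 in SU-DHL-10 on the log2 scale. For FAS they were 1.58 in Pfeiffer, -2.39 in WSU-DLCL2 and 1.11 in SU-DHL-6. TNFRSF10A differed by -0.71 in Pfeiffer and 0.48 in SU-DHL-10, and TNFRSF10B by -0.43 in WSU-DLCL2 and 0.42 in SU-DHL-6. TNFSF10 differed by 1.79 in WSU-DLCL2 and -1.08 in HT, and FADD by 0.42 in SU-DHL-10. CASP8 differed by -0.50 in WSU-DLCL2, 0.67 in KARPAS-422 and 0.38 in SU-DHL-10. In 7 of the 16 the call was kept in all 5 alternative settings run for it and with each of the line's arrays left out. In none of 16 groups of 7 mutant lines, covering level and response of the 8 genes, did 1 line stand apart by Dixon's criterion, which chance meets in about 1 of 20 groups. Just under its critical value of 0.568 for gap over range lay the FADD response in SU-DHL-10 (0.566) and the TNFSF10 response in WSU-DLCL2 (0.538).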

How the results depend on the processing

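Of the 18 called responses, 11 kept their call in all 9 settings and with each array left out. Other probe sets are not part of this count. Of the 11, TNFRSF10B in WSU-DLCL2 was kept by 0 of 3 other probe sets and CASP8 in WSU-DLCL2 by 0 of 2. CASP8 in KARPAS-422 was kept by 1 of 2, and each of the rest by at least 1. With arrays at equal medians the all-gene median moved by -0.14 to -0.23 in SU-DHL-10, WSU-DLCL2, SU-DHL-6, KARPAS-422, Toledo and Pfeiffer, and 13 responses fell, against 7, and 9 rose, against 11; the mean mutant response then had 3 members called, and with 4 times the constant 1 (TNFSF10, 0.59, adjusted p = 0.0477). Signs turned with another probe set for TNFRSF21 in SU-DHL-6 (1.21), TNFRSF10B in Pfeiffer (1.27) and WSU-DLCL2 (0.0029), and CASP8 in KARPAS-422 (-0.57); the cause was not tested. With 1 array left out, 10 to 12 responses rose, 6 to 8 fell and 13 to 17 differed from the other 9 lines; with 1 line left out, 0 to 0 members were called across lines. The Pfeiffer TNFSF10 call was lost in 3 of 4 left-out arrays, the SU-DHL-6 one without either second array (adjusted p = 0.143 and 0.119), and those of KARPAS-422 and SU-DHL-10 without the first vehicle array (adjusted p = 0.0809 and 0.0892). Same-numbered arrays did not deviate together (over 0.1 in 0 lines); the replicate block gave 11 rises and 7 falls, and 13 differences from the other 9 against 16. The counts of members under these alternatives stand without the share of all genes called. Dim signals limit TNFRSF1A and the vehicle levels of TNFRSF21.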
